A study of Homo sapiens with 6 samples.

Results

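GOLGB1, GOLGA4, CENPF, AKAP12, CENPE, ASPM, MKI67 and AHNAK encode very large proteins of the Golgi, the kinetochore, the spindle, mitotic chromosomes and the cell's scaffolds. They were examined for peaks of RNA immunoprecipitation and sequencing (RIP-seq) of SF3B4 in HEK293T, a human embryonic kidney cell line that carries the SV40 large T antigen. A peak belonged to a gene when it overlapped the gene's interval by at least 1 bp. The 8 intervals are given in the genome build hg19, measured between 29.5 and 123.7 kb and summed to 688 kb. In all, 113 of the 181131 deposited peaks belonged to these genes. The genes were picked on peak values of these same lists, with the strongest RIP-2 segments known, so the RIP-2 values and their contrast with RIP-1 are a description with no test.

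The study made 6 libraries from wild-type HEK293T cells, 2 each for anti-SF3B4, non-specific IgG and input, in 2 RIP experiments named RIP-1 and RIP-2. The deposited data are 4 peak lists, an mRNA list and a list called NotExon (here the non-exon list) for each experiment, so IgG and input enter only through the calls. Each list is a single call, so no value carries an error across replicates, and the depth of the libraries is unknown. The sources do not say against which library the peaks were called. Binding to SF3B4 and abundance of a transcript in the library therefore cannot be told apart.

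SF3B4 belongs to the SF3b complex, which helps the U2 snRNP of the spliceosome to bind the branch site of an intron early in splicing. The study's title concerns RNA methylated by the enzyme METTL16, and methylation was not among the measurements. Introns are removed between exons that are mostly short, but some genes place much of their coding sequence in a single, very long exon. GOLGB1 (giantin) and GOLGA4 are golgins, long coiled-coil proteins that tether vesicles at Golgi membranes. CENPF is a coiled-coil protein and CENPE a kinesin motor of the kinetochore, ASPM acts at the spindle poles, and MKI67 (the Ki-67 antigen) coats mitotic chromosomes and marks proliferating cells. AKAP12 anchors protein kinase A at membranes, and AHNAK is a giant scaffold protein encoded largely by a single exon.

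The genes carried many RIP-2 segments of the mRNA list and few of RIP-1. RIP-2 had 67 segments in 7 of the 8 genes, and RIP-1 had 7 segments in 4 of them, a ratio of 9.57. Over the whole mRNA lists the ratio was 0.938, from 10280 RIP-2 and 10960 RIP-1 segments. The non-exon lists did not show this contrast. There the genes held 32 RIP-2 and 7 RIP-1 peaks, a ratio of 4.57, against 5.2 for the whole lists. With each gene left out in turn, the mRNA-list ratio lay between 7.71 without GOLGB1 and 14.5 without ASPM, which held 3 of the 7 RIP-1 segments. The genes were picked together on RIP-2 strength, so this range does not measure the effect of that choice.

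**Figure D1:**
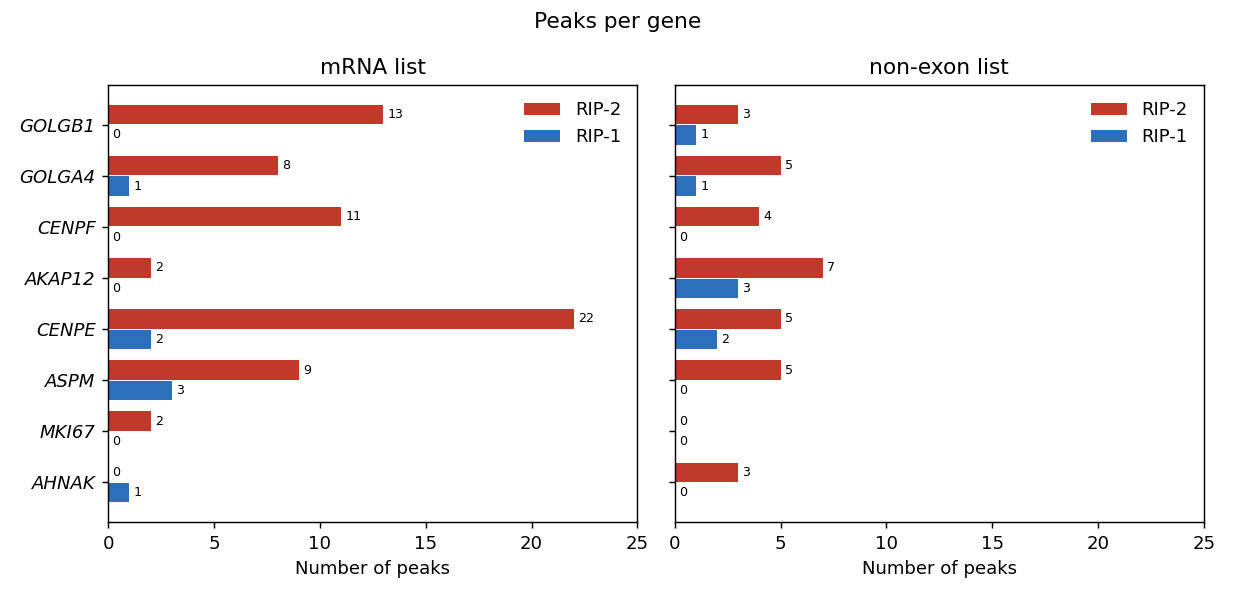
Number of deposited peaks in each gene, in the mRNA lists (left) and the non-exon lists (right), with RIP-2 in red above RIP-1 in blue. In the mRNA lists CENPE had 22 RIP-2 segments and 2 of RIP-1, while AHNAK had 0 and 1.

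By length, RIP-2 segments covered 44.9 kb or 6.52% of the 8 intervals, and RIP-1 segments covered 5.67 kb or 0.824%. Most of the RIP-1 length was 1 ASPM segment of 4755 bp. The non-exon peaks covered 4.78% in RIP-2 and 1.24% in RIP-1, and the whole non-exon lists 2.81% and 0.781% of the chromosomes, measured up to their last peak. Peak density in the non-exon lists was close to that of the lists, with 46.5 peaks per Mb of the intervals in RIP-2 against 43.3 over the chromosomes, and 10.2 in RIP-1 against 8.34. The mRNA lists had 97.4 segments per Mb of the intervals in RIP-2 against 3.32 over the chromosomes, and 10.2 in RIP-1 against 3.54. Chromosomes include the space between genes, so these mRNA-list densities do not compare the 8 genes with other genes.

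In the 7 genes other than GOLGA4, all 65 mRNA-list segments lay on the gene's strand in RefSeq. For GOLGA4 no strand was taken from RefSeq, and its 9 segments were all on the plus strand. The non-exon peaks carry no strand. In the RefSeq annotation of GRCh38, 4 of the 8 genes (GOLGA4, CENPF, AKAP12 and ASPM) are overlapped by other annotated genes, such as GOLGA4-AS1, and non-exon peaks there may belong to either gene.

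The deposited score of a peak, given by the authors, behaved as a negative log10 of a p-value multiplied by 10, with no value below 50 and repeated values of exactly 3100. The value 3100 looks like a cap, although the highest RIP-1 segment of the whole list scored 3218. In RIP-2 the scores of the 67 segments ran from 54.3 to 3100, with a median of 118, against a median of 79.6 in the whole list. In RIP-1 the 7 segments scored from 51.8 to 76.2 with a median of 57.4, against a median of 79.9 in the whole list. Of the 67 RIP-2 segments, 20 scored at least 200 (29.9%), against 5.74% of the whole list. Of the 7 RIP-1 segments 0 did (95% Wilson confidence interval 0 to 35.4%), an interval that holds the 11.7% of that list. The interval treats segments as independent, although 3 of the 7 lay in ASPM, so no conclusion is drawn from it.

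**Figure D2:**
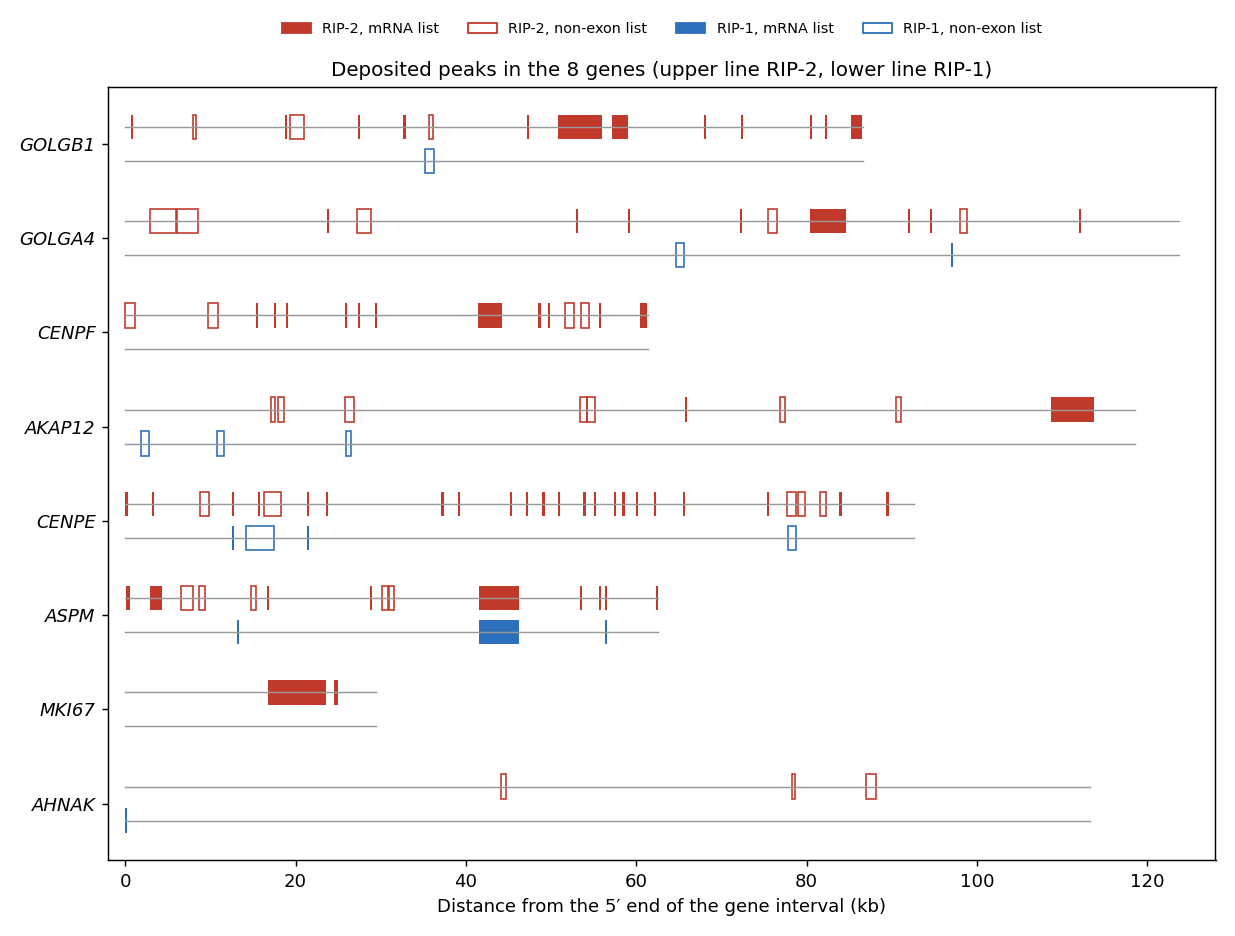
Position of each deposited peak along the 8 genes, as distance in kb from the 5′ end of the gene interval, with RIP-2 (red) on the upper and RIP-1 (blue) on the lower line of each gene. Filled boxes are mRNA-list segments and open boxes non-exon peaks; filled boxes narrower than 0.25 kb are drawn at that width. Of the 6 genes with a wide RIP-2 segment, ASPM alone has it in RIP-1 too.

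The genes were picked with the strongest RIP-2 segments known, and 6 of the 8 genes had a segment of 2 kb or more. They held 6 of the 77 such segments of the RIP-2 mRNA list, in which 0.749% of all segments reached 2 kb. CENPE and AHNAK had none, so a giant exon is not visible in these lists for those 2 genes. The widest CENPE segment measured 315 bp. Whether a segment is a whole exon was not checked, because no hg19 annotation or sequence was used here. No sequence is shown for the same reason.

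In CENPF, the RIP-2 segment on the plus strand of chromosome 1 from 214817899 to 214820743 (2844 bp) scored 3100. It was first of the list by score, level with a short segment elsewhere, at a value that looks like a cap. The GOLGA4 segment on the plus strand of chromosome 3 from 37365078 to 37369316 (4238 bp) scored 2775 and ranked 3rd. In AKAP12, the plus-strand segment of chromosome 6 from 151669845 to 151674887 (5042 bp) scored 2656. None of these 3 places had a RIP-1 peak in either list.

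GOLGB1, on the minus strand of chromosome 3, had a pair of wide segments. That from 121412587 to 121417776 (5189 bp) scored 2202 in RIP-2, and that from 121409516 to 121411428 (1912 bp) scored 998. The MKI67 segment, on chromosome 10 between 129900842 and 129907687 (minus strand), measured 6845 bp, the second widest of the RIP-2 list, and scored 2171. RIP-1 listed no peak over any of these 3 places either.

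ASPM differed from these genes. Its minus-strand segment of chromosome 1 from 197069560 to 197074315 (4755 bp) stood in both lists with the same edges, with a score of 311 in RIP-2 and 57.4 in RIP-1. In RIP-2 it ranked 137th of 10280 by score. In RIP-1 it ranked 9044th of 10960 and had the lowest score of the 42 segments of 4 kb or more, whose median was 274. A second ASPM segment of over 1 kb, from 197111460 to 197112940 (1480 bp), scored 68.5 in RIP-2 and had no RIP-1 partner.

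CENPF, GOLGA4, AKAP12, GOLGB1 and MKI67 each held a segment of 2 kb or more with a score of at least 1000, and these were 5 of the 9 RIP-2 segments at that score (0.0875% of the list). The next-highest score in the 8 genes was the 998 of GOLGB1, just under that limit. The other 71 RIP-2 segments of 2 kb or more scored from 50.7 to 888 with a median of 106, and none of them reached 1000. In RIP-1, 385 segments reached 2 kb. The 384 outside the 8 genes had a median score of 172, and 44 of them scored 1000 or more, so wide segments with high scores were called in RIP-1 at other places.

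**Figure D3:**
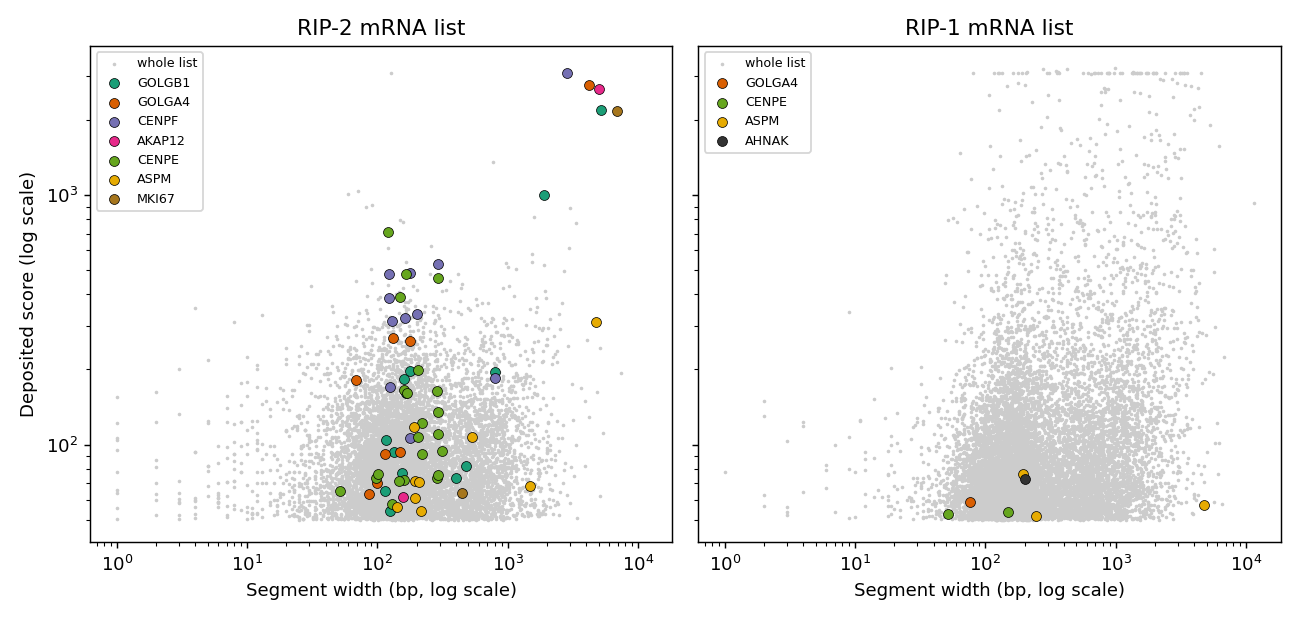
Deposited score against segment width, both on log scales, for every segment of the mRNA lists of RIP-2 (left) and RIP-1 (right), with the segments of the 8 genes in colour over the whole list in grey. In RIP-2 the segments of CENPF, GOLGA4, AKAP12, GOLGB1 and MKI67 with scores of 2171 to 3100 lie at the upper right; in RIP-1 the coloured points stay between 51.8 and 76.2.

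The RIP-2 segments of 2 kb or more with the highest scores outside the 8 genes are named by position, as no hg19 annotation was used. The highest, with a score of 888, spanned 92469762 to 92472792 of chromosome 14. It was followed by 100642709 to 100646038 of chromosome 7 (773) and 86571461 to 86574427 of chromosome 8 (612). Lower scores belonged to 56482783 to 56485513 of chromosome 6 (498) and 3710075 to 3712696 of chromosome 17 (370). RIP-1 had no mRNA-list or non-exon peak over any of these 5. The 5 highest wide RIP-2 segments inside the genes and these 5 outside were thus alike in having no RIP-1 peak. Over all RIP-2 segments of 2 kb or more, 1 of 6 inside the genes and 8 of 71 outside overlapped a RIP-1 segment (11.3%, 95% Wilson confidence interval 5.82 to 20.7).

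The wide segment lay at a similar relative place in 5 genes. From the 5′ end of the interval, its midpoint stood at 61.7% of the length in GOLGB1, 66.7% in GOLGA4, 68.4% in MKI67, 69.7% in CENPF and 70.1% in ASPM. In AKAP12 it stood at 93.8%, near the 3′ end. These places follow from where each gene's interval begins and ends, and no test was made of them.

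The genes also carried short RIP-2 segments. The 59 segments under 1 kb had a median score of 107, against 79 for all RIP-2 segments under 1 kb. Of the 59, 13 reached 200 (22% against 5.26%), and all of these lay in CENPF, CENPE and GOLGA4. Counted at any width, CENPF had 8 of the 20 segments at that score. Without CENPF the median of all RIP-2 segments of the genes was 99.4, against 118 with it. With the strongest segment of each gene left out, 60 segments with a median of 107 remained. Segments of 1 gene come from the same transcript and are not independent of each other. Picking the genes on strong RIP-2 segments therefore bears on their short segments too.

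CENPF had high RIP-2 scores beyond its wide segment, although its first mRNA-list segment lay 15.4 kb from the 5′ end of the interval. Beside its wide segment it had 10 RIP-2 segments of 122 to 801 bp, scoring from 107 to 529 with a median of 328. In all, 8 of its 11 segments reached 200, and no CENPF peak stood in a RIP-1 list. The highest of the short ones lay from 214793997 to 214794289 and ranked 26th in the list.

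CENPE had the most segments, 22 in RIP-2, none wider than 315 bp. Their scores ran from 58.0 to 713 with a median of 108, and 4 reached 200. The highest, from 104116270 to 104116390 (chromosome 4, minus strand), lay 3.2 kb from the 5′ end of the interval and ranked 18th in the list. The next 3 were 485 from 104082242 to 104082408, 466 from 104061970 to 104062261 and 391 from 104098055 to 104098203. These 4 segments lay between 3.2 and 57.5 kb from the 5′ end, with weaker ones among them. Of the 22 widths, 4 were 291 bp, and 159, 204 and 219 bp each occurred in 2 segments.

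GOLGB1 had 11 RIP-2 segments under 1 kb. Those upstream of its wide segments, in the 5′ part, scored 54.3 to 105, and those downstream 82.4 to 197, so the 3′ part reached higher scores but the ranges overlapped. GOLGA4 had 7 short segments scoring from 63.2 to 267, of which those from 37337577 (score 267) and from 37356910 (261) lay upstream of its wide segment. The short ASPM segments scored from 54.4 to 118. AKAP12 and MKI67 had just 1 other segment each, with scores of 61.8 and 64.2. In these 2 genes the wide segment made up 97% and 93.9% of the covered length.

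**Figure D4:**
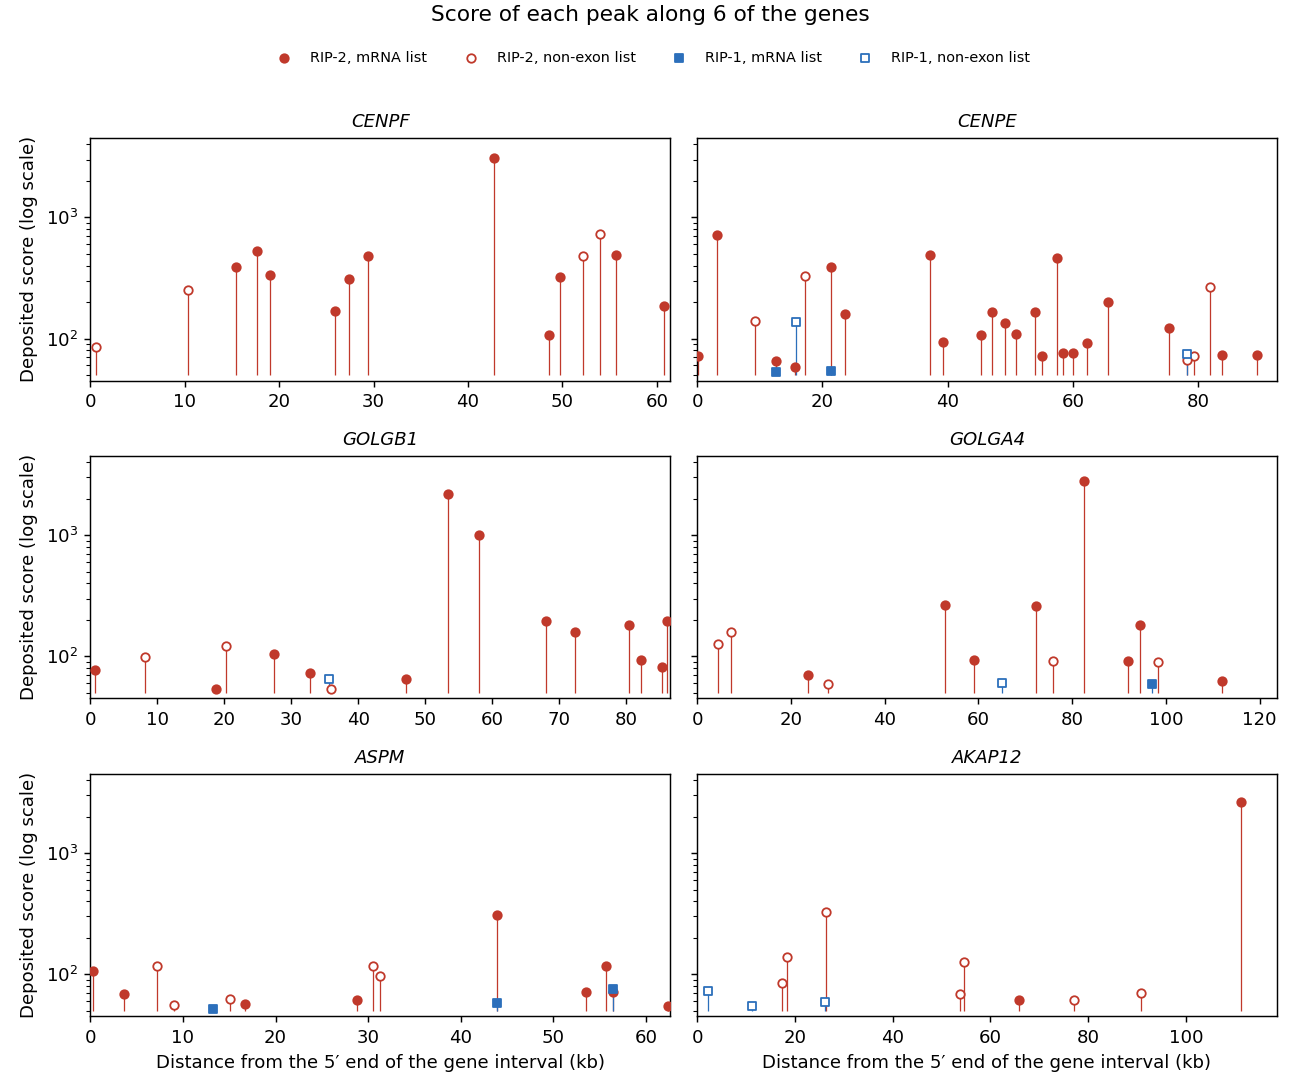
Deposited score (log scale) of each peak against distance from the 5′ end of the gene interval, for 6 of the genes. Circles are RIP-2 and squares RIP-1; filled symbols are mRNA-list segments and open symbols non-exon peaks. CENPF shows several high RIP-2 segments beside its wide one, while AKAP12 has a single high segment near its 3′ end.

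Skipping a whole coding exon keeps the reading frame if its width is a multiple of 3. Whether the segments are such exons was not checked. Taken as end minus start, 36 of the 67 RIP-2 widths (53.7%) and 3 of the 7 RIP-1 widths were multiples of 3. In the whole mRNA lists it was 37% in RIP-2 and 37.1% in RIP-1, and among the 32 RIP-2 non-exon peaks of the genes 7 were (21.9%), against 33.2% of that list. Segments of 1 gene are related, and CENPE alone gave 22 of the 67. Its 4 segments of 291 bp, and 2 each of 159, 204 and 219 bp, were among the multiples of 3. So were its segments of 102, 120, 168, 288 and 315 bp, so CENPE gave a large part of the 36. It is unknown from which base the mRNA-list positions are counted, and widths 1 bp longer would give another set. This is therefore a description.

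Of the 67 RIP-2 segments, 4 overlapped a RIP-1 segment (5.97%, 95% Wilson confidence interval 2.35 to 14.4), close to the 6.91% of the whole RIP-2 list. Seen from RIP-1, 4 of 7 were shared (57.1%, 25 to 84.2), against 6.41% of the RIP-1 list. The genes were picked with strong RIP-2 segments known, which favours such overlap in advance, so no conclusion is drawn from this share. RIP-2 segments covered 6.52% of the 8 intervals and 0.0965% of the chromosomes, and the part of this coverage in the share was not tested. The intervals cover counting error only and treat segments as independent.

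The 4 shared segments belonged to ASPM and CENPE, and each had identical edges in both lists. In ASPM the segment from 197059325 to 197059518 scored 71.3 in RIP-2 and 76.2 in RIP-1, the reverse order of the wide ASPM segment. In CENPE the segment from 104098055 to 104098203 scored 391 in RIP-2 and 53.5 in RIP-1. The second in CENPE, from 104106966 to 104107018 (52 bp), scored 65.2 in RIP-2 and 52.8 in RIP-1. The scores of RIP-2 and RIP-1 were not tested against each other, since depth and control are unknown.

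RIP-1 had 3 further segments. One lay in ASPM from 197102479 to 197102725 with a score of 51.8, and one in GOLGA4 from 37381614 to 37381690 with a score of 59.1. The GOLGA4 segment lay 3′ of the wide RIP-2 segment, at 78.4% of the interval. The third was the single mRNA-list segment of AHNAK, from 62314131 to 62314332 of chromosome 11 (201 bp, minus strand). It scored 73.0 and lay at the 5′ edge of the interval. AHNAK had no RIP-2 segment, and GOLGB1, CENPF, AKAP12 and MKI67 had none in RIP-1.

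In the non-exon lists, where the authors' fold enrichment over the control is deposited, the 32 RIP-2 peaks had a median of 7.21, against 8.19 in the whole list. The 7 RIP-1 peaks had a median of 5.22, against 6.55. The RIP-2 values ran from 4.35 in GOLGB1 to 16.0 in CENPE, and those of RIP-1 from 4.06 to 8.34, both in AKAP12. Both medians lay below those of their lists. Among peaks under 1 kb the RIP-2 medians were nearly equal, 8.12 in the genes and 8.19 in the list. The RIP-1 medians under 1 kb were 5.24 and 6.82. The part of width in these differences was not tested.

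The highest RIP-2 fold enrichments were in CENPE and AKAP12. In CENPE the peak from 104037320 to 104038041 had 16.0-fold enrichment and a score of 267. In AKAP12 the peak from 151615348 to 151616278 had 14.9-fold and a score of 126, and that from 151586896 to 151587995 had 12.0-fold (11.95 as deposited) and a score of 326. The highest in the other genes were 10.7-fold in CENPF (214828197 to 214829236), 10.3-fold in ASPM (197085055 to 197085686), 9.15-fold in AHNAK (62235644 to 62235994), 7.84-fold in GOLGB1 (121460318 to 121460678) and 7.09-fold in GOLGA4 (37290669 to 37293226). MKI67 had no non-exon peak in either experiment. In RIP-1 the highest were 8.34-fold in AKAP12 (151562985 to 151563975), 7.52-fold in GOLGA4 (37349309 to 37350202), 5.27-fold in CENPE (104040778 to 104041716) and 5.22-fold in GOLGB1 (121432387 to 121433383).

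**Figure D5:**
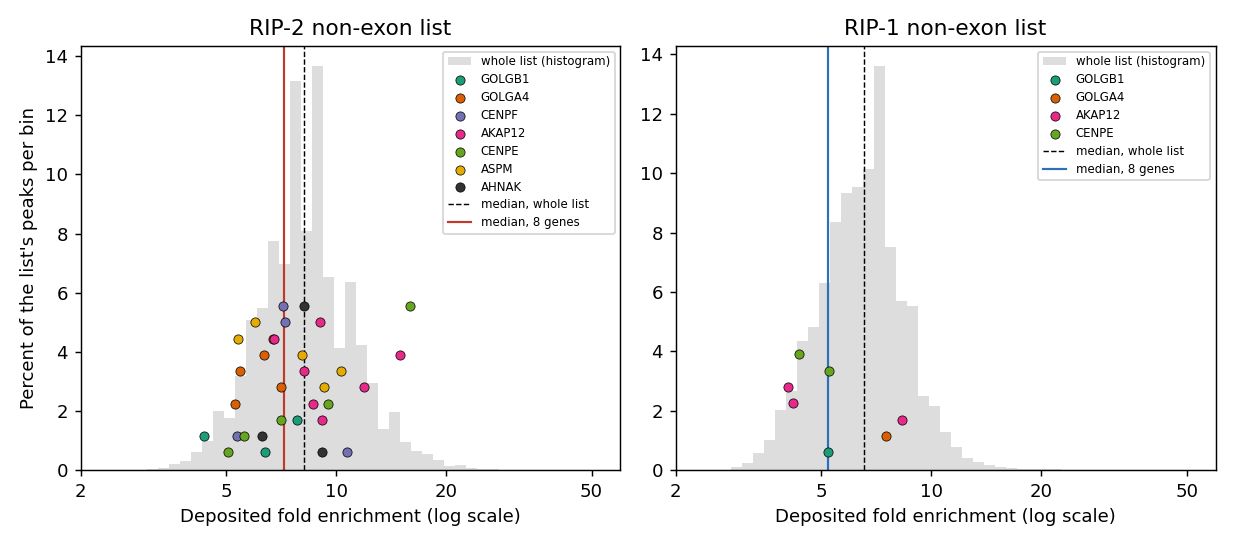
Deposited fold enrichment (log scale) of the non-exon peaks of the 8 genes, as coloured points, over a histogram of the whole list in percent of peaks per bin, for RIP-2 (left) and RIP-1 (right). The height of a point has no meaning, lines mark the medians (7.21 and 8.19 in RIP-2, 5.22 and 6.55 in RIP-1, genes first), and 8 RIP-1 peaks of the list lie beyond the right end at 60.

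Among the 32 RIP-2 non-exon peaks, 6 scored at least 200 (18.8%), against 5.04% of that list. Under 1 kb it was 2 of 18 (11.1%), against 3.8% of the list's peaks under 1 kb, and the part of width was not tested. Of the 6, 3 were in CENPF, 2 in CENPE and 1 in AKAP12. The CENPF peak from 214830080 to 214830961 scored 735 and ranked 47th of 134094, with a fold enrichment of 5.37. Its neighbour from 214828197 to 214829236 scored 483. Both lay between strong short segments of the mRNA list, in the 3′ part of the gene. In RIP-1, 0 of 7 non-exon peaks reached 200 (0 to 35.4%), and 2.31% of that list did.

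The false discovery rate (FDR) is deposited with the non-exon peaks. In the 8 genes' RIP-2 peaks it ran from 70.1% to 100%. Of the 32 peaks 20 stood at 100% (62.5%), against 41.6% of the list. Among RIP-2 peaks under 1 kb the shares were 50% in the genes and 39% in the list. In the 32 peaks the FDR rose with the score, from 70.1% at a score of 52.7 to 97.23% at 85.79. Every one of them scoring 89.75 or more stood at 100%. The genes' RIP-2 peaks had a median score of 97.7, against 80.6 in the list. Their share at 100% is thus tied to their scores and is no separate trait. All 7 RIP-1 peaks had an FDR of 100%, as did 94.1% of that list. An FDR of 5% or less was given to 0 of the 32 RIP-2 peaks and 0 of the 7 RIP-1 peaks of the genes, against 0 of 134094 peaks in the whole RIP-2 list and 175 of 25797 in the whole RIP-1 list. The mRNA lists hold no FDR.

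Of the non-exon peaks, 4 of 32 in RIP-2 (12.5%, 95% Wilson confidence interval 4.97 to 28.1) overlapped a RIP-1 peak, against 3.63% of that list. From the RIP-1 side it was 4 of 7 (57.1%, 25 to 84.2), against 18.1%. The genes' RIP-2 peaks were also wider than the list's, with medians of 857 and 564 bp, and the part of width in the overlap was not tested. In AKAP12 the shared place had a fold enrichment of 11.95 in RIP-2 and 4.06 in RIP-1, and scores of 326 and 59.3. A CENPE place, from 104101277 to 104103274 in RIP-2 and from 104102188 to 104105435 in RIP-1, had scores of 331 and 137. The RIP-1 peak there also spanned a CENPE segment of the RIP-2 mRNA list, from 104103918 to 104104048 (score 58.0). The other shared places, in CENPE and GOLGB1, scored 66.8 and 53.6 in RIP-2, and 74.7 and 65.6 in RIP-1.

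A single peak crossed an interval edge, the RIP-2 non-exon peak at the 5′ end of CENPF from 214776528 to 214777731 (score 85.8). No mRNA-list segment lay within 10 kb outside any interval. Non-exon peaks stood at 46.5 per Mb inside the intervals and 18.8 per Mb in these flanks (3 peaks) in RIP-2, and at 10.2 per Mb inside and 18.8 per Mb in the flanks (3 peaks) in RIP-1. The nearest were a RIP-2 non-exon peak 4739 bp from GOLGB1 (score 81.6) and a RIP-1 non-exon peak 6119 bp from ASPM (score 84.8).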

How the data were processed

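Peaks were called once per RIP experiment, and the names in the deposited files carry the prefix of the peak caller MACS. Per the submitters' processing notes, cutadapt 1.9.3, HISAT2 2.0.4 and hg19 were used; the sources used here give no caller version, settings or control. The files have no headers, so units were read from the values: a deposited score per peak and, in the non-exon lists, a length, the authors' fold enrichment (a ratio) and an FDR in percent. mRNA-list positions are as deposited, with widths as end minus start; non-exon ends are both included.

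Peaks overlapping the 8 intervals by 1 bp were counted with Python 3.11.15 and pandas 2.3.3, and sharing was overlap by 1 bp on the same strand where given. The overlap code was tested on simulated data. No model was fitted and no p-value computed. Genes, lists and settings were chosen with earlier results of these data known. Named peaks were the highest-scoring mRNA-list segment of each gene and experiment, all segments of 1 kb or more, shared segments, the highest fold enrichment per gene, and the 5 highest-scoring segments of 2 kb or more outside the genes; others were named after their values were seen.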

Additional observations from a re-analysis of the deposited data

How the results depend on the processing

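Of 115 alternative values, 104 stayed within 1.5 times the reported count or length, or within the confidence interval of the reported median or share. The RIP-2 values of the mRNA list (67 segments, 44.9 kb, median score 118) did so under every alternative run, apart from 1 share. The share of segments at the upper score limit was 7.46% at 1000 and 1.49% at 3100, a stricter limit by construction. Within these wide limits the count fell to 45 without CENPE. The median ran from 99.4 without CENPF to 161 without ASPM, and its confidence interval treats segments as independent. Some runs could not move these values, such as leaving out AHNAK, which had 0 RIP-2 segments. The small RIP-1 numbers moved. Among the upper 50% of each list by score, RIP-1 kept 0 of 7 mRNA-list segments (0 bp) and 3 of 7 non-exon peaks (5178 bp), with 0 shared mRNA-list segments and 1 shared non-exon peak, against 4 of each in the full lists. Without each gene's strongest peak, chosen after the data were seen, 3 RIP-1 peaks remained in each kind of list. With genes left out in turn, also added later, RIP-1 counts ran from 4 to 7 in the mRNA list (4 without ASPM) and from 4 to 7 in the non-exon list (4 without AKAP12). No paired analysis was possible because the peak lists hold no columns for the separate libraries, and RIP-1 and RIP-2 are themselves the values compared. Golgin, kinetochore and scaffold genes outside the 8 were not analysed here, for want of an hg19 annotation. Unknown depth limits every comparison of RIP-2 with RIP-1.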
